A study of Drosophila melanogaster with 3 samples.

Results

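Aminoacyl-tRNA synthetases are the enzymes that load each transfer RNA with its amino acid. Their genes were examined here for binding of clockwork orange (cwo), a bHLH-Orange repressor of the fly circadian clock, in Drosophila melanogaster embryos. The genes were taken by symbol, as every protein-coding gene whose symbol joins a 3-letter amino acid name to RS at its end or before the suffix -m. That rule found 35 of the 13945 protein-coding genes of the dm6 annotation. Of these, 15 carry the suffix -m and are called mitochondrial here, and 20 lack it and are called cytosolic. This split is by symbol only, and a gene without the suffix may also supply the mitochondrion.

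Chromatin immunoprecipitation with sequencing (ChIP-seq) was carried out on chromatin from a transgenic line that stably expresses cwo with GFP fused at its C-terminus, precipitated with an antibody against GFP. The 3 samples were biological replicates of 1 group, made from intact embryos of both sexes collected 6 to 24 h into development and sheared by sonication. All of them carried the tagged cwo, and no other genotype or stage entered the comparisons. Times of day were not compared, and the sample details used here name none. In whole embryos, binding in fewer cells and weaker binding in each cell cannot be told apart.

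Translation in the cytosol and in the mitochondrion draws on separate pools of charged transfer RNA, so flies carry a nuclear gene for most synthetases of each compartment. The enzymes fall into class I and class II by the fold of the catalytic domain. In animals several cytosolic synthetases are held together with scaffold proteins in the multisynthetase complex, and GluProRS joins the glutamate and proline enzymes in one protein. bHLH-Orange proteins such as cwo are known for binding E-boxes, of which CACGTG is the canonical form.

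The deposited lists on dm6 give the span of each enriched region, its summit, the position of highest enrichment, and a signal value. The optimal list held 7366 regions that had passed the authors' irreproducible discovery rate (IDR) procedure, with signals of 248 to 24645 and a median of 427. It matched the 7366 strongest regions of a relaxed list of 30000 regions called on pooled reads. Each replicate had its own relaxed list of 30000 regions, with median signals of 33.0, 44.2 and 65.2 in replicates 1, 2 and 3. Signals were therefore compared only within a list, as ranks with 1 for the strongest, and read depth is unknown. A gene was called bound when an optimal summit lay no more than 1000 bp from a transcription start site (TSS) of that gene.

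Sequences at bound synthetase genes are shown first. Of the strongest promoter summits of the 11 bound genes, only 1 had the canonical E-box within 100 bp. They were read from the RefSeq genome of the dm6 assembly in the direction of transcription of the named gene. At GlnRS, the gene with the strongest site of the family, the E-box is shown in the 30-base stretch 3R:25265837-25265866 on the minus strand. The promoter of LeuRS-m also held one, shown in the stretch 3L:4825817-4825846 on the plus strand, but its optimal summit lay elsewhere. Capitals mark CACGTG.
GlnRS E-box: gttttcgtttcaCACGTGcaggcacgatag
LeuRS-m promoter E-box: gcaattcccatcCACGTGagcgatgtggca

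The next sequences are the 61 bases centred on the strongest summit of 7 bound genes, all of them intergenic except LeuRS-m, with the summit base in capitals. They lie at 3R:25265763-25265823 (minus strand) for GlnRS, 3L:4825023-4825083 (plus) for LeuRS-m, 3L:22288477-22288537 (plus) for IleRS, 3R:23958464-23958524 (minus) for GluProRS, 2L:12103553-12103613 (plus) for ThrRS, 2L:19132006-19132066 (minus) for AsnRS and 3R:7886896-7886956 (plus) for ArgRS-m. Most are rich in A and T. They are a selection and not the strongest sites in order, since SerRS at rank 1260 is not printed while ArgRS-m at rank 4400 is.
GlnRS summit: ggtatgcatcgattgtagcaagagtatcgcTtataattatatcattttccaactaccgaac
LeuRS-m summit: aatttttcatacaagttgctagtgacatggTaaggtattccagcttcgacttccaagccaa
IleRS summit: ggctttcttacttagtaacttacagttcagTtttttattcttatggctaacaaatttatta
GluProRS summit: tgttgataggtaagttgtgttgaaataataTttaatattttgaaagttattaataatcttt
ThrRS summit: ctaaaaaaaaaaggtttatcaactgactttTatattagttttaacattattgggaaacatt
AsnRS summit: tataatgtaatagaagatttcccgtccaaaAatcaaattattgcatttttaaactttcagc
ArgRS-m summit: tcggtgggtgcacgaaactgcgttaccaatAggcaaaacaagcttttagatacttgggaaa

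Promoters of 11 of the 35 synthetase genes (31.4%) held an optimal cwo summit, against 3535 of all 13945 protein-coding genes (25.3%). The cytosolic genes held most of them. AlaRS, AsnRS, AspRS, GlnRS, GluProRS, IleRS, SerRS, ThrRS and ValRS were bound, 9 of 20 (45%), and of the mitochondrial genes only ArgRS-m and LeuRS-m, 2 of 15 (13.3%). The cytosolic share was above that of all protein-coding genes and the mitochondrial share below it.

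The replicates were then read separately, each through its own 7366 strongest regions. Cytosolic genes with a summit at the promoter numbered 7, 9 and 8 of 20 in replicates 1, 2 and 3, a mean share of 40.0% ± 5.0 (SD, n = 3). Mitochondrial genes numbered 2 of 15 in each replicate, 13.3% with no spread. The shares of all protein-coding genes were 25.8%, 25.5% and 25.0% in the same lists. The cytosolic share exceeded the mitochondrial share by 21.7, 31.7 and 26.7 percentage points, a mean of 26.7 ± 5.0 (SD, n = 3). The replicate lists score the same 20 and 15 genes, so this SD describes only how repeatable the calls were. It does not measure the uncertainty of shares that rest on so few genes. A gene is worth 5 points in the cytosolic group, so the whole spread between replicates is the loss or gain of 2 genes, AlaRS and ValRS. With 3 replicates of 1 group the smallest two-sided exact sign p is 0.25, so no p-value is given.

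**Figure D1:**
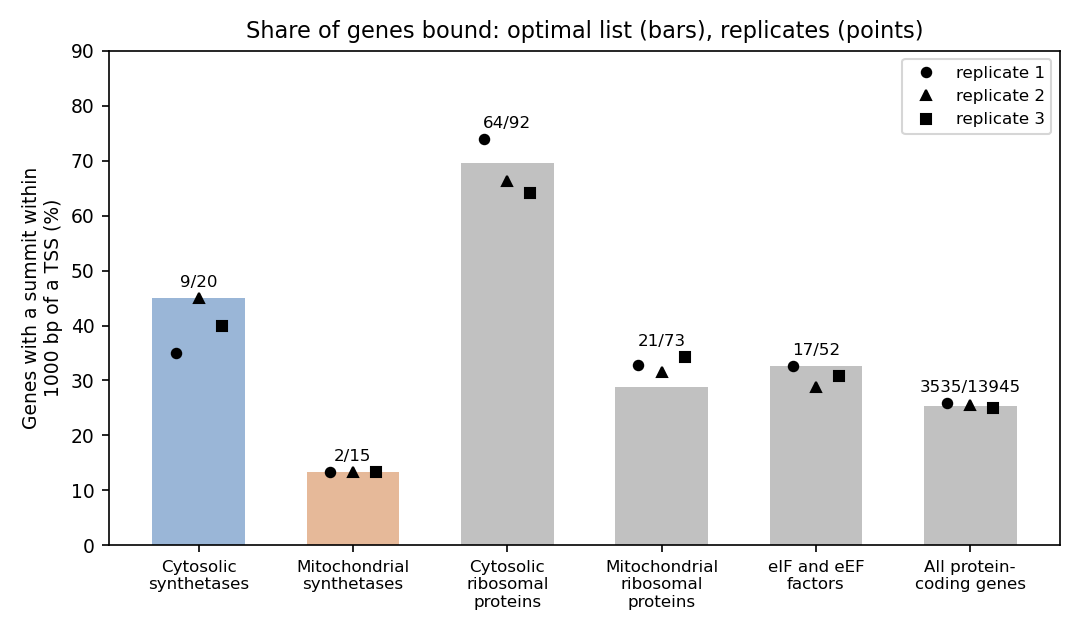
Bars give the percentage of genes in each family with an optimal summit within 1000 bp of a TSS, with the count above each, and points give the same share in the 7366 strongest regions of replicates 1, 2 and 3. Cytosolic synthetases stood at 45% and mitochondrial synthetases at 13.3%, with all protein-coding genes at 25.3%.

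Other families of the translation machinery were counted in the same way. The cytosolic ribosomal protein genes, drawn by the symbols RpL and RpS, were bound in 64 of 92 cases (69.6%), more often than the cytosolic synthetases. Mitochondrial ribosomal protein genes (mRpL and mRpS) were bound in 21 of 73 cases (28.8%), more often than the mitochondrial synthetases. Initiation and elongation factor genes (eIF and eEF) were bound in 17 of 52 cases (32.7%). Over replicates the means were 68.1% ± 5.14, 32.9% ± 1.37 and 30.8% ± 1.92 (SD, n = 3 each). In both compartments synthetase genes thus had a lower share than the ribosomal protein genes, in the optimal list and in each replicate. The replicates score the same genes, and 1 of the 15 mitochondrial synthetase genes is worth 6.67 points. These families also differ in promoter layout, which is set out below.

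The bound genes were also set by amino acid. For 15 amino acids the fly has both a cytosolic and a mitochondrial gene. The cytosolic gene alone was bound for 8 of them, namely alanine, asparagine, aspartate, glutamate, isoleucine, proline, serine and valine, with glutamate and proline sharing GluProRS. The mitochondrial gene alone was bound for 2, arginine and leucine. Neither was bound for 5, which were cysteine, methionine, phenylalanine, tryptophan and tyrosine, and both were bound for 0. With 2 bound mitochondrial genes, an overlap of 0 is no sign that the compartments avoid each other. A further 5 amino acids had no gene with the suffix -m, and of their cytosolic genes GlnRS and ThrRS were bound while GlyRS, HisRS and LysRS were not.

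The strongest site of the family belonged to GlnRS, the glutaminyl-tRNA synthetase and a member of the multisynthetase complex. Its summit, at 3R:25265793 within the region 3R:25265608-25265984, lay 72 bp upstream of the GlnRS TSS and had a signal of 2183, rank 261 of the pooled list. The same site ranked 206, 305 and 280 in replicates 1, 2 and 3, a mean of 264 ± 51.5 (SD, n = 3). GlnRS thus stood 195th among the 3535 bound genes when these were ordered by their strongest summit.

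The GlnRS summit fell in the 123 bp between the start sites of GlnRS and RIOK2, which encodes a kinase known from yeast and human cells for its part in maturing the small ribosomal subunit. It lay 51 bp from the RIOK2 TSS, closer than to that of GlnRS. The E-box printed above was centred 58.5 bp from the summit and 130.5 bp upstream of the GlnRS TSS, just past the RIOK2 start. A further summit lay 272 bp upstream of GlnRS in a coding exon of RIOK2, with a signal of 430 and ranks of 5026, 4047 and 3507 in the replicates. The pair of start sites therefore held 2 summits, the stronger of them between the genes.

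LeuRS-m, the mitochondrial leucyl-tRNA synthetase, had the strongest site after GlnRS and the most distant one. Its signal was 929, rank 1142, with ranks of 827, 668 and 1194 in the replicates (mean 896 ± 270, SD, n = 3). The summit at 3L:4825053 lay 800 bp upstream of LeuRS-m, in an intron of the divergent gene Dhc64C, the heavy chain of cytoplasmic dynein, and 634 bp from the Dhc64C TSS. The E-box of the LeuRS-m promoter was centred 21.5 bp upstream of its TSS, well outside the 100 bp searched on each side of the summit. A far weaker summit of the pooled list, at 3L:4825768 and 85 bp upstream with rank 23293, did have this E-box within 100 bp. It lay in regions of replicates 1 and 2, at ranks 21576 and 14754, and in none of replicate 3.

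IleRS, SerRS and GluProRS followed with nearly equal ranks. IleRS, an isoleucine enzyme of the multisynthetase complex, had a summit at 3L:22288507, 158 bp upstream, with a signal of 908 and replicate ranks of 1737, 1054 and 1252. SerRS had a summit at 2L:3037423, 20 bp upstream, with a signal of 886 and replicate ranks of 1342, 1457 and 1324. GluProRS had a summit at 3R:23958494, 103 bp upstream, with a signal of 820 and replicate ranks of 1506, 1108 and 1744. The replicate ranks of these 3 genes overlapped, so their order was not resolved. Their means were 1348 ± 351, 1374 ± 72.2 and 1453 ± 321 (SD, n = 3 each).

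The SerRS summit lay in the 5' UTR of CG17260, whose TSS is 8 bp from that of SerRS on the other strand. IleRS faced Hem, a component of the SCAR actin regulator, with 470 bp between the start sites. GluProRS faced AP-1sigma, a clathrin adaptor subunit, with 260 bp between them. In these last pairs the summit was nearer to the synthetase, at 158 against 312 bp for IleRS and Hem, and at 103 against 157 bp for GluProRS and AP-1sigma.

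AspRS and AsnRS, related class II enzymes, had weaker sites, and the ranks of their strongest summits varied little. AspRS held 3 optimal summits, the strongest at 2R:12879940 with a signal of 463 and ranks of 3463, 3450 and 3535 in the replicates (mean 3483 ± 45.8, SD, n = 3). That summit lay 344 bp upstream of an internal TSS of AspRS, in an intron that AspRS and Nmda1 share, and 142 bp from the Nmda1 TSS. The others were at 2R:12880142, rank 4412 and 142 bp upstream of a TSS of AspRS, and at 2R:12876468, rank 6456 and 536 bp upstream of one. The strongest summit and that at 2R:12880142 lay in overlapping regions with the same replicate ranks, so they are not separate sites in the replicates. The summit at 2R:12876468 ranked 4756 and 7612 in replicates 1 and 3 and lay in no region of replicate 2. AsnRS had a summit at 2L:19132036, 82 bp upstream, with a signal of 442 and replicate ranks of 3853, 3085 and 3643 (mean 3527 ± 397, SD, n = 3). Its head-to-head neighbour DCTN6-p27, a dynactin subunit, began 287 bp from the summit.

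ArgRS-m, the only other bound mitochondrial gene, had a summit at 3R:7886926, 119 bp upstream, with a signal of 373. Its replicate ranks were 4528, 5489 and 4382 (mean 4800 ± 601, SD, n = 3). The summit stood between ArgRS-m and CG17816, 193 bp from the start of the neighbour. Both bound mitochondrial genes thus held a place in the strongest regions of all 3 replicates.

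The ranks of the remaining sites varied more between replicates. ThrRS had a summit at 2L:12103583, 168 bp upstream, with a signal of 596 and ranks of 3304, 13421 and 2540. The rank of 13421 is that of a weaker neighbouring region, because the strong region of replicate 2 ended short of the pooled summit. That strong region had its own summit only 22 bp away, at rank 1847, so ThrRS ranked high in all 3 replicates by summit position. AlaRS had a summit at 2L:8381813, 49 bp upstream, with a signal of 387 and ranks of 7709, 3277 and 4670, and replicate 1 fell just past the 7366 strongest. ValRS, the weakest bound gene, had a summit at 2R:13198439, 411 bp upstream, with a signal of 264 against 248 at the end of the optimal list. Its ranks were 16818, 6979 and 8068, and only replicate 2 placed it among the strongest regions. AlaRS and ValRS were thus the bound genes with a summit among the strongest regions of fewer than 3 replicates.

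A replicate rank is that of the replicate's strongest region holding the pooled summit. By this measure 8 of the 11 bound synthetase genes (72.7%) had their strongest summit inside one of the strongest regions of every replicate, against 2775 of all 3535 bound genes (78.5%). With a replicate summit within 200 bp required in place of the region, the count was 9 of 11, ThrRS added. The share of all bound genes by that rule is not given here, so the 9 of 11 has no background beside it. The median rank of the strongest summit was 2285 among bound synthetase genes and 2809 among all bound genes. Neither value sets the family far apart from bound genes in general.

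**Figure D2:**
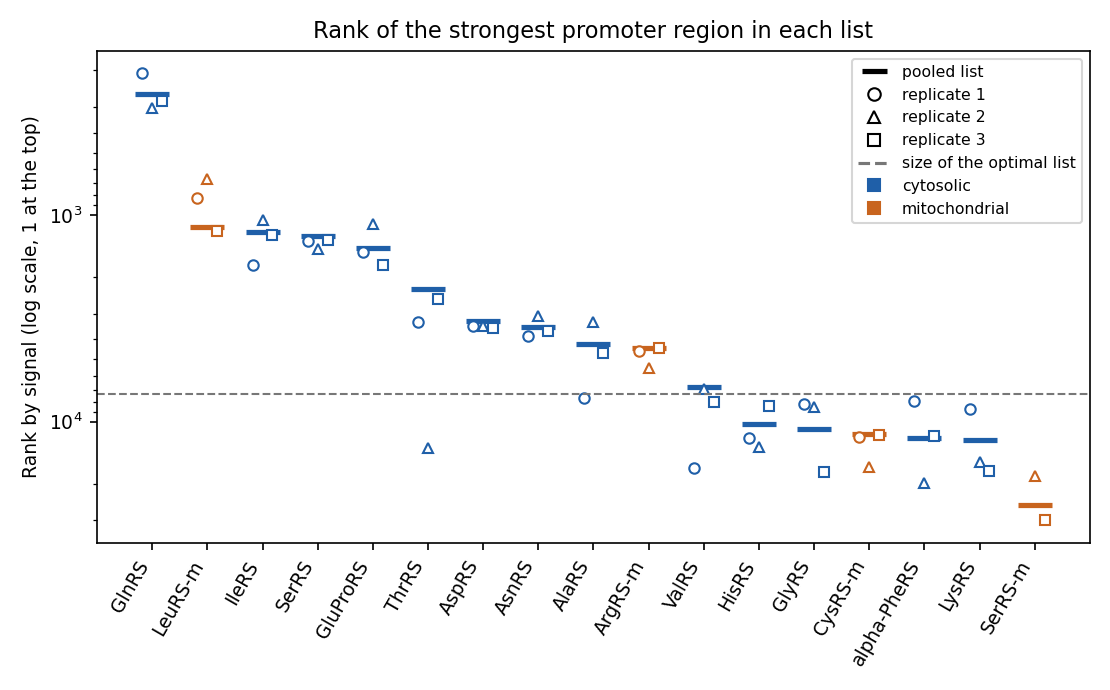
Ranks by signal (log scale, strongest at the top) of the strongest promoter region of the 17 synthetase genes with a summit in the pooled list, with bars for the pooled list, open symbols for replicates 1, 2 and 3, and a dashed line at the 7366 regions of the optimal list. GlnRS stood highest at rank 261, SerRS and AspRS varied little, and the low symbol of ThrRS for replicate 2 is a neighbouring region, with its closer summit at rank 1847.

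The relaxed pooled list added weaker summits at both bound and unbound synthetase genes. A pooled summit lay at the promoters of 17 of 35 synthetase genes (48.6%), against 51.3% of all protein-coding genes. By compartment these were 13 of 20 cytosolic genes (65%) and 4 of 15 mitochondrial genes (26.7%). Of the genes with a pooled summit, 11 of 17 synthetase genes (64.7%) and 49.4% of all protein-coding genes were also bound. The optimal regions are part of the pooled list, so these shares count the bound genes again and are no separate comparison of the compartments. Beyond the bound genes, the pooled list added 4 of the 11 unbound cytosolic genes and 2 of the 13 unbound mitochondrial genes.

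Of the 11 unbound cytosolic genes, 4 had such a weaker summit. HisRS had one 58 bp from its TSS at rank 10228, with replicate ranks of 11963, 13324 and 8356, and a start of Bx was equally far from it. GlyRS had one at 278 bp and rank 10836, with replicate ranks of 8208, 8502 and 17488. The starts of Plp and sstn were nearer to that summit, at 140 and 145 bp. For alpha-PheRS, the catalytic subunit of the phenylalanine enzyme, it lay at 105 bp and rank 12025, with replicate ranks of 7959, 19866 and 11786. For LysRS it lay at 67 bp and rank 12196, with replicate ranks of 8683, 15707 and 17287, and the start of Hecw was only 5 bp from it. None of these 4 genes reached the 7366 strongest regions of any replicate. In humans the genes for GlyRS and LysRS each supply both compartments, and no separate fly gene with the suffix -m was found for either.

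The other 7 unbound cytosolic genes had no pooled summit at a promoter. Their nearest optimal summits lay at 4722 bp for MetRS, 5754 bp for CysRS, 6226 bp for TrpRS, 7049 bp for LeuRS, 7332 bp for beta-PheRS, 23838 bp for ArgRS and 33752 bp for TyrRS. The 3' end of LeuRS lies 2208 bp from timeless (tim), the clock gene whose product pairs with period. The tim promoter held 2 optimal summits, the stronger at 2L:3507407 with rank 80, one of the stronger sites of the series. The LeuRS TSS is at the far end of its gene, so LeuRS was unbound at the 7049 bp given above. TyrRS and GluRS-m stand in tandem with 171 bp between them and had the most distant nearest summits of the family.

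Among the 13 unbound mitochondrial genes, CysRS-m had a pooled summit at 73 bp with rank 11430 and replicate ranks of 11927, 16515 and 11664. SerRS-m had one at 479 bp with rank 25203, listed only in replicates 2 and 3 at 18411 and 29987. The other 11 had none, and their nearest optimal summits lay 1906 bp (PheRS-m) to 31627 bp (GluRS-m) away. In increasing distance they were PheRS-m, ProRS-m at 3991 bp, AsnRS-m at 6358 bp, AlaRS-m at 6610 bp, TrpRS-m at 7431 bp, ValRS-m at 9785 bp, AspRS-m at 9945 bp, TyrRS-m at 10172 bp, IleRS-m at 13393 bp, MetRS-m at 18117 bp and GluRS-m.

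The median distance to the nearest optimal summit was 1464 bp for cytosolic genes, 6610 bp for mitochondrial genes and 5454 bp for all protein-coding genes. Just inside the limit of 1000 bp stood LeuRS-m at 800 bp and ValRS at 411 bp, and just outside it GlyRS at 1062 bp and alpha-PheRS at 1866 bp. GlyRS missed the call by 62 bp.

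**Figure D3:**
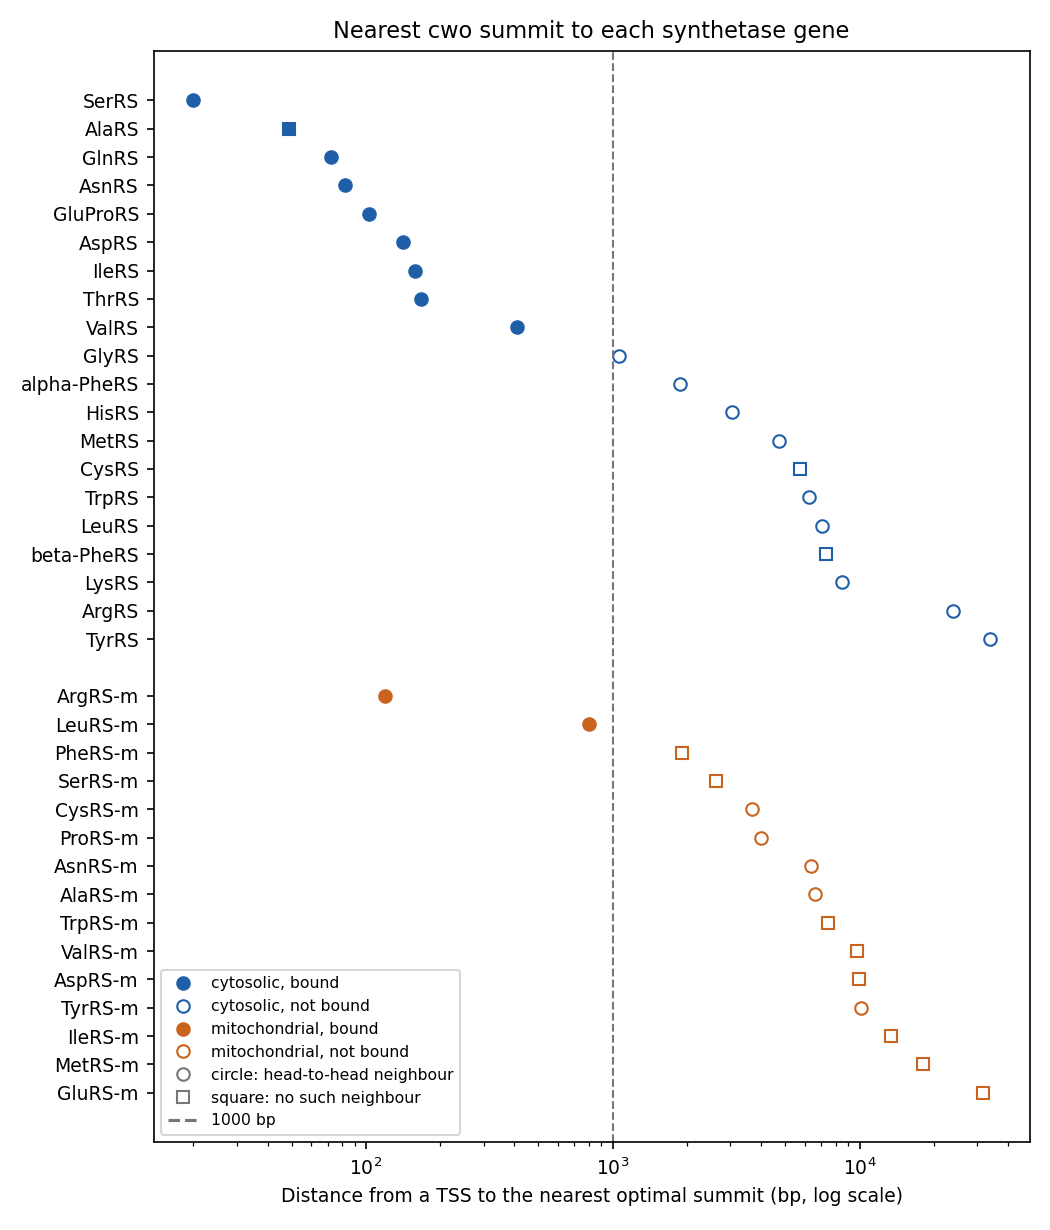
Distance from a TSS of each of the 35 synthetase genes to the nearest optimal summit (bp, log scale), cytosolic genes above and mitochondrial genes below, filled where the gene was bound and with circles for genes that have a head-to-head neighbour. The 9 bound cytosolic genes lay at 20 to 411 bp and the 2 bound mitochondrial genes at 119 and 800 bp, left of the dashed line at 1000 bp.

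The enzyme classes were counted within each compartment. Beside the 25.3% of all protein-coding genes, cytosolic class I genes were bound in 3 of 9 cases (GlnRS, IleRS and ValRS, 33.3%) and cytosolic class II genes in 5 of 10 (AlaRS, AsnRS, AspRS, SerRS and ThrRS, 50%). GluProRS, which holds an enzyme of each class, was bound as well. With weaker sites included, a pooled summit lay at the promoters of 9 of 10 cytosolic class II genes, all except beta-PheRS, and of 3 of 9 cytosolic class I genes, beside 51.3% of all protein-coding genes. Mitochondrial class I genes were bound in 2 of 9 cases and class II genes in 0 of 6, where SerRS-m alone had a pooled summit.

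Genes of the multisynthetase complex were bound in 4 of 8 cases, AspRS, GlnRS, GluProRS and IleRS, in the optimal list and in each replicate. ArgRS, LeuRS, LysRS and MetRS were not. The other cytosolic genes were bound in 5 of 12 cases. The shares were 50% and 41.7%, a difference of about 1 gene, beside 25.3% of all protein-coding genes and 37.3% of those with a head-to-head neighbour.

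The 4 synthetase genes on the X chromosome, ArgRS, HisRS, LysRS and alpha-PheRS, are all cytosolic, and none was bound, while 3 of them had a pooled summit. Of all 2196 protein-coding genes on X, 517 (23.5%) were bound and 1226 had a pooled summit. On arm 2L, in contrast, 4 of 5 cytosolic genes were bound (AlaRS, AsnRS, SerRS and ThrRS), beside 24.2% of all protein-coding genes of that arm. These counts per arm are small and are given as a description.

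Promoter layout also differed between the compartments. A head-to-head neighbour was defined as a protein-coding gene on the opposite strand whose TSS lies within 1000 bp upstream, a definition chosen after the sites had been seen. Such a neighbour stood beside 17 of 20 cytosolic genes (85%) and 7 of 15 mitochondrial genes (46.7%), against 5052 of all protein-coding genes (36.2%). Among genes with one, 8 of 17 cytosolic (47.1%) and 2 of 7 mitochondrial synthetase genes (28.6%) were bound, against 37.3% of all such protein-coding genes. In the same order, 70.6%, 42.9% and 64.2% of these genes had a pooled summit at a promoter. Among genes without a head-to-head neighbour, AlaRS was the only bound cytosolic gene of 3. None of 8 such mitochondrial genes was bound, against 18.6% of all such protein-coding genes.

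With the comparison kept to genes that have a head-to-head neighbour, the cytosolic share exceeded the mitochondrial share by 12.6, 18.5 and 12.6 percentage points in replicates 1, 2 and 3, a mean of 14.6 ± 3.40 (SD, n = 3). That is smaller than the 26.7 points over all members, and 1 mitochondrial gene among 7 makes 14.3 points. The part of promoter layout in the difference between compartments was not tested further. A head-to-head neighbour stood beside 58 of 73 mitochondrial ribosomal protein genes (79.5%). Of these 21 (36.2%) were bound, beside 28.6% of such mitochondrial synthetase genes. Without one, 0 of 15 mitochondrial ribosomal protein genes and 0 of 8 mitochondrial synthetase genes were bound. Among cytosolic genes with one, 80% of ribosomal protein genes and 47.1% of synthetase genes were bound. The part of layout in those family differences was not tested.

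The strongest summits of the bound synthetase genes all lay near the start of another gene as well. In 11 of 11 cases another protein-coding gene had a TSS within 1000 bp of the summit, against 1808 of all 3535 bound genes (51.1%). Of the 11, 10 had a head-to-head neighbour (90.9%), against 53.3% of all bound genes. For AspRS, however, the other start was that of Nmda1 and not that of its head-to-head neighbour Lfg. For AlaRS, which has no head-to-head neighbour, it was that of CG13392, 910 bp away. The part of promoter layout in this count was not tested. A head-to-head neighbour stood beside 100% of bound mitochondrial and 68.8% of bound cytosolic ribosomal protein genes. The nearest start was that of the synthetase in 6 cases (AlaRS, ArgRS-m, AsnRS, GluProRS, IleRS and ThrRS) and that of another gene in 5 (AspRS, GlnRS, LeuRS-m, SerRS and ValRS). The ValRS summit, for example, lay 102 bp from the start of Kdm4B, a histone demethylase gene, and 411 bp from that of ValRS. Which gene of a pair a summit serves cannot be told apart from these lists.

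All 11 strongest summits lay upstream of the nearest TSS of the synthetase, against 75.6% of all bound genes. The share was 85.7% of bound mitochondrial and 75% of bound cytosolic ribosomal protein genes. The strongest synthetase summits were also close to the start. They lay within 200 bp in 8 of 11 cases (72.7%), against 1766 of all 3535 bound genes, with a median distance of 119 bp against 201 bp. Of the 10 bound genes with a head-to-head neighbour, 7 had the summit between both start sites (ArgRS-m, AsnRS, GlnRS, GluProRS, IleRS, ThrRS and ValRS). The same was true of 945 of 1884 such genes in all (50.2%). Spacing between the paired starts ran from 8 bp for SerRS and CG17260 to 513 bp for ValRS and Kdm4B.

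**Figure D4:**
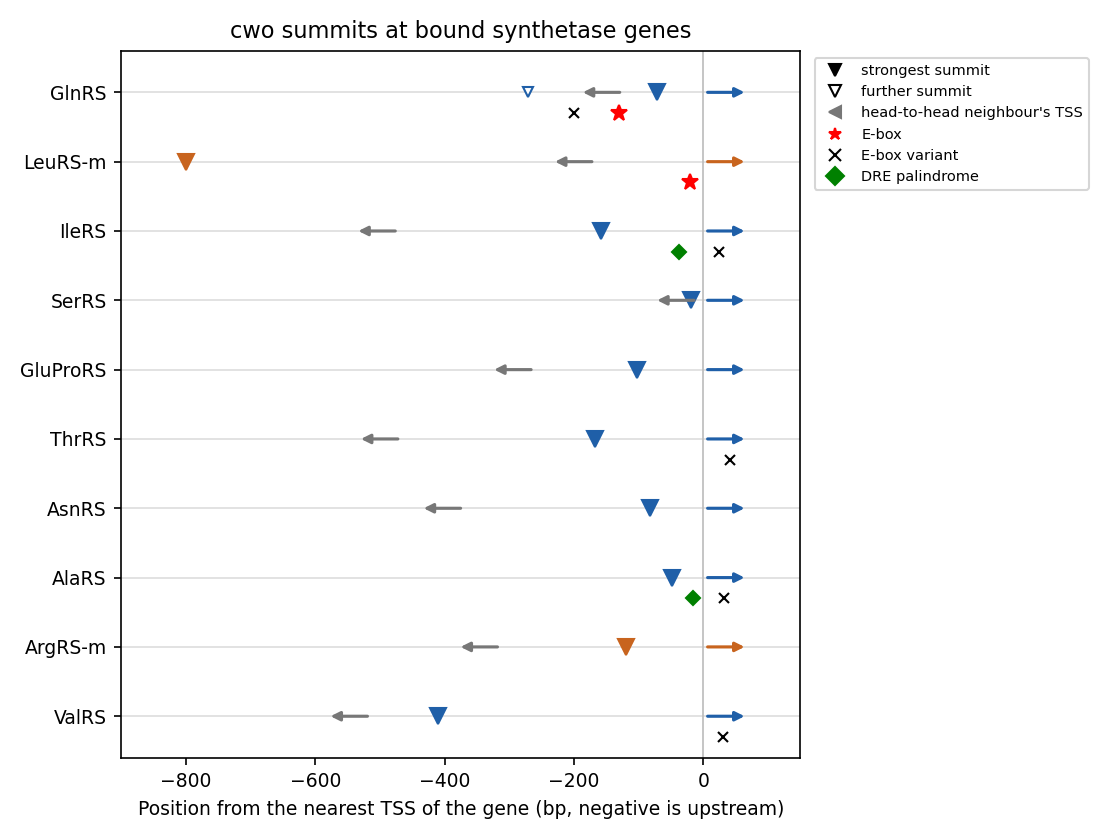
Position of cwo summits (triangles), start sites of head-to-head neighbours (grey arrows) and motifs at 10 bound synthetase genes, in bp from the TSS with negative values upstream, where the E-box is CACGTG, its variant CACGTT and the DRE palindrome TATCGATA. AspRS, whose summits lie at several start sites, is not drawn, and the strongest summits stood 20 to 800 bp upstream.

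Motifs were searched within 100 bp of the strongest summit on both strands. CACGTG was found at 1 of 11 bound synthetase genes, GlnRS, against 505 of 3535 bound genes (14.3%) and 13 of 64 bound cytosolic ribosomal protein genes (20.3%). The variant CACGTT was found at AlaRS (all bound genes 9.70%), and the variant CACGCG at none of the 11 (all bound genes 7.86%). TATCGATA, the palindrome in the DNA replication-related element (DRE) of housekeeping promoters, was found at AlaRS (all bound genes 4.75%). GGTCACACT, a core promoter motif of housekeeping genes, was found at GlnRS (all bound genes 1.70%), where it covers the TSS. TGATGNAA, the core of the amino acid response element bound by ATF4 in mammals, was found at none of the 11 (all bound genes 2.66%).

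Of the 11 bound synthetase genes, 2 (18.2%) thus held any of the 6 motifs, against 33.8% of all bound genes. No match says only that these letters are not in the window. The G and C content of the windows had a median of 29.9% at cytosolic genes (27.4% to 43.3%), stood at 27.4% and 44.8% at LeuRS-m and ArgRS-m, and had a median of 37.3% over all bound genes. The part of base composition in the motif counts was not tested.

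The promoters of all 35 genes, bound or not, were searched over 250 bases before to 50 bases after the most upstream TSS. CACGTG was found in 2 of them, GlnRS and LeuRS-m, against 4.24% of all promoters. CACGTT was found in 8 of 20 cytosolic promoters and in 0 of 15 mitochondrial ones, against 9.73% of all promoters and 16.3% of those of cytosolic ribosomal protein genes. The 8 genes were AlaRS, GlnRS, HisRS, IleRS, LeuRS, ThrRS, TyrRS and ValRS, of which 5 were bound, beside 9 of 20 cytosolic genes in all. The bound share of all promoters with CACGTT is not given here, so no link between this motif and binding is drawn.

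In 5 of these 8 promoters CACGTT lay a short way downstream of the TSS, within the transcribed part. The matching share over all promoters is not given here. The centre of the motif was 23.5 bp downstream in IleRS, 26.5 bp in LeuRS, 30.5 bp in ValRS, 31.5 bp in AlaRS and 41.5 bp in ThrRS. Sites of 4 of these genes are shown for that position, with the motif in capitals and AACGTG for its reading on the other strand. The stretches around them are 3L:22288674-22288703 (plus strand) for IleRS, 2L:3514615-3514644 (minus) for LeuRS, 2L:8381718-8381747 (minus) for AlaRS and 2L:12103778-12103807 (plus) for ThrRS.
IleRS CACGTT: ccgtacctcgggCACGTTgtgtgccacgca
LeuRS CACGTT: cactggccgcaaCACGTTgcactgctcgaa
AlaRS CACGTT: gagccaatctcaCACGTTgctgcagtcggc
ThrRS CACGTT: aaaatgggcgacAACGTGgtgacggaacta
Of these, only the AlaRS site came within 100 bp of the strongest summit, at 80.5 bp, and LeuRS was not bound. The sequence and the summit positions therefore did not coincide at most of them.

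Of the other motifs, CACGCG was found in 3 of 20 cytosolic promoters (HisRS, LeuRS and TyrRS) and in 0 of 15 mitochondrial ones (all promoters 6.17%). TATCGATA was found in 4 of 20 cytosolic promoters (AlaRS, ArgRS, IleRS and TrpRS) and in 1 of 15 mitochondrial ones (PheRS-m), against 9.37% of all promoters and 30.4% of those of cytosolic ribosomal protein genes. GGTCACACT was found in GlnRS and beta-PheRS and in AsnRS-m, AspRS-m and ProRS-m (all promoters 6.05%). TGATGNAA was found in 2 cytosolic promoters, CysRS and beta-PheRS, and in 0 mitochondrial ones (all promoters 4.10%). The AlaRS palindrome, shown in the stretch 2L:8381765-8381794 on the minus strand, lay between the summit and the TSS, 15.5 bp upstream, and is shown in capitals.
AlaRS DRE palindrome: atctctaaatcTATCGATAtctcatccagt

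Genes that act with the synthetases were taken from a list of 15, of which 3 (20%) were bound, each in all 3 replicates, against 25.3% of all protein-coding genes. The list thus lay near the share of genes in general, and its values are given as a description. GatA, a subunit of the amidotransferase that makes glutaminyl-tRNA in mitochondria, where no GlnRS-m gene was found, had a summit at 3R:19028960, 103 bp from its TSS, with a signal of 565 and rank 2476. crc, the fly counterpart of ATF4, a factor that responds to uncharged transfer RNA through the kinase Gcn2, had a summit at 2L:21311090, 224 bp away, with a signal of 504, rank 2944 and CACGTG in its window. eEF1alpha1, which carries charged transfer RNA to the ribosome, had a summit at 2R:11892108, 14 bp away, with a signal of 312 and rank 5537. These 3 sites were all weaker than those of GlnRS, IleRS, SerRS and GluProRS.

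The other 12 genes of the list were unbound. The scaffold genes of the multisynthetase complex had their nearest optimal summits at 20589 bp (AIMP1), 2722 bp (AIMP2) and 4052 bp (AIMP3). GatB and GatC, which work with GatA, stood at 7415 and 2363 bp, and the kinase gene Gcn2 at 8998 bp. Slimp, which encodes a mitochondrial relative of seryl-tRNA synthetase, stood at 3087 bp, and Dtd, which encodes an enzyme that removes D-amino acids from transfer RNA, at 1472 bp. eEF1alpha2 stood at 1263 bp, mEFTu1 and mEFTu2, genes for the mitochondrial elongation factor, at 5038 and 8805 bp, and CG1750 at 7108 bp. Of these 12, only mEFTu1 was counted as bound in a replicate, replicate 1.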

How the data were processed

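The deposited files are lists of ChIP-seq regions on dm6 for each of 3 replicates, for their pooled reads and after the IDR procedure, per the labels. The signal column is a score per region from the authors' peak caller, deposited with no scale stated, and the summit was taken as the region start plus the deposited summit offset. The sources used here name no aligner, caller, version or IDR threshold, and read depth is unknown. The dm3 lists were not used here, and no coordinates were converted. Genes, TSSs and features came from Ensembl release 115 (BDGP6.54) and sequence from the RefSeq genome of the same assembly. Positions are 1-based. Counts used Python 3.11.15, pandas 2.3.3 and numpy 2.4.6, and the steps were tested on simulated data.

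A replicate held a summit that lay inside one of its 7366 strongest regions. The members and lists were chosen with earlier results of these data known. All 35 genes were accounted for. By the rule for named genes, signal and ranks were given for all bound mitochondrial genes, the 10 bound cytosolic genes of highest signal (9 existed), the weakest bound gene and any with CACGTG at its strongest summit. All 15 symbols of the pathway list were matched, with gatA, gatB and gatC under the annotation's capitals. Alternatives were other distances (500 and 2000 bp), start sites, lists, motif windows (50 and 250 bp) and the omission of each replicate. The head-to-head alternative was chosen after seeing the data.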

Additional observations from a re-analysis of the deposited data

How the results depend on the processing

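No paired analysis was possible because all samples belong to 1 group. Of the alternatives, 34 values stayed within 1.5 times the reported count and 11 did not. Cytosolic genes bound numbered 5 of 20 when a summit counted only for the nearest protein-coding TSS, a setting that gave 1 of 15 mitochondrial genes and 19.8% of all protein-coding genes. The mitochondrial count was 1 with a distance of 500 bp, with the stronger part of the optimal list (3683 regions), and where the region itself had to hold a TSS, and 4 with the pooled list. The count of all protein-coding genes was 2178 with those 3683 regions, 7149 with the pooled list, 2067 where the region held a TSS, and 1884 among genes with a head-to-head neighbour. CACGTG was found at 0 of 11 strongest summits with a window of 50 bp. In each of these settings the cytosolic share stayed above the mitochondrial share, but the settings share many of their calls and are not separate tests. When the list was limited to summits that both other replicates held, leaving out a replicate gave 6 to 7 bound cytosolic genes, 2 mitochondrial genes each time, 2954 to 3050 protein-coding genes, 1 gene with CACGTG each time, and 8 to 9 genes held by every replicate used. Without replicate 3, the cytosolic count of 6 lacked AlaRS, ThrRS and ValRS, although replicates 1 and 2 both had a strong ThrRS summit by the 200 bp rule. These settings thin the pooled calls and are not new calls. With 20 and 15 genes, a change of 1 gene moves a share by 5 or 6.67 points, and depth is unknown.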
